A study of Mus musculus with 6 samples.

Results

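The creatine kinase and creatine cycle genes were followed in the inguinal fat pad (iWAT), a white subcutaneous depot, of mice on a high-fat diet. The set holds 8 genes, chosen by symbol: the creatine kinases Ckb, Ckm, Ckmt1 and Ckmt2, the synthesis enzymes Gatm and Gamt, the transporter Slc6a8 and the phosphatase Alpl. The deposited table of 15176 genes held 7 of them, all of which passed the filter on low values, and Ckmt1 was not analysed here. RNA-seq covered 4 libraries labelled Steap4f/f, the floxed control genotype (replicates 1, 2, 5 and 6), and 2 labelled Steap4AKO, the study's name for mice that lack Steap4 in adipocytes (replicates 2 and 3). The diet was shared by all 6 libraries, and no group on another diet was used here. The sources used here do not give age, sex or the promoter that drives the deletion, and the labels do not say that each library is a separate mouse, so p-values reflect only how far these samples spread, which may be technical.

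Creatine kinases move a phosphate group between ATP and creatine, which buffers ATP where it is used. Ckm is the cytosolic isoform of skeletal and heart muscle and Ckmt2 the mitochondrial isoform of the same tissues, while Ckb is the cytosolic isoform of brain, smooth muscle and other tissues and is the isoform studied in thermogenic adipocytes. Gatm makes guanidinoacetate from arginine and glycine, Gamt methylates it to creatine, Slc6a8 carries creatine into cells, and Alpl encodes tissue-nonspecific alkaline phosphatase, which in the proposed futile creatine cycle of fat mitochondria removes the phosphate from phosphocreatine.

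The upstream sequences of the 3 measured kinases are shown because the 2 muscle isoforms had low values together in Steap4AKO while Ckb did not. They were taken from RefSeq on GRCm38.p6, in which 7 of the 8 genes matched and Slc6a8 did not. Each runs 5′ to 3′ on the gene's strand and begins 250 bases before the RefSeq start. That of Ckm is cut short because its last 69 bases lie in an exon of GENCODE M21. Capitals mark matches, on either strand, to any of 6 sets of letters chosen after the sequences had been seen: CAGCTG (the E-box form bound by myogenic factors), CACCTG (another E-box form), CATTCC (the core of the MCAT element), AAGGTCA (a nuclear receptor half-site) and the TATA box forms TATAAA and TATATA. Ckm lies at chr7:19410844-19411024 on the plus strand, Ckmt2 at chr13:91876886-91877135 on the minus strand and Ckb at chr12:111672339-111672588 on the minus strand.
Ckm: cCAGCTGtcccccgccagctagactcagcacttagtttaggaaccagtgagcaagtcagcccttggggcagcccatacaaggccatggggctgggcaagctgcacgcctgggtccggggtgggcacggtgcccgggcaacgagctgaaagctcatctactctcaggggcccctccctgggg
Ckmt2: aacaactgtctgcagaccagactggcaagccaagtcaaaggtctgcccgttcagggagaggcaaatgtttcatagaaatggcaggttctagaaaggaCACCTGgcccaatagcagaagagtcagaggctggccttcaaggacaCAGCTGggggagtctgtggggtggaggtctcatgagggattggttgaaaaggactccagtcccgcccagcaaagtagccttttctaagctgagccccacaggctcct
Ckb: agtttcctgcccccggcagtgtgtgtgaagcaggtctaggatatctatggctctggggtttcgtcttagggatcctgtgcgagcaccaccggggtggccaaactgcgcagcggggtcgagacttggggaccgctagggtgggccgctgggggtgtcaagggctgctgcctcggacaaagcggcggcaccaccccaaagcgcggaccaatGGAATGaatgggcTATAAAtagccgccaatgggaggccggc

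CAGCTG was found from -249 to -244 in Ckm and from -107 to -102 in Ckmt2, and not in this window of Ckb. Of 32851 RefSeq windows of 250 bases, 13.0% held CAGCTG, and among the other measured members 1 of the 2 windows of Alpl held it as well. CACCTG, present in 17.22% of windows, was found in Ckmt2 from -153 to -148. It was also found in Gatm from -71 to -66. The Alpl window without CAGCTG held it on the other strand, from -185 to -180. Ckb had TATAAA from -28 to -23 (12.37% of windows) and CATTCC on the other strand from -41 to -36 (12.64%). Ckm had TATATA from -31 to -26 (5.25%), in the bases not shown. These matches describe letters and were not tested as binding sites.

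Facts of the whole table bear on the members as follows. Steap4 had 8312.6 and 8013.6 in Steap4AKO, against 17018, 9417.2, 8310 and 8851.2 in Steap4f/f, so its level in whole tissue did not separate the groups (log2 difference -0.35, SE 0.29, limma adjusted p = 0.544). Adipocyte markers were present throughout, with Adipoq and Plin1 at 21862.4 or more. Steap4AKO replicate 2 stood apart: 973 of 15006 genes tested (6.48%) were more than 2-fold above every other library there, and estimated depth was lowest, at about 11600000 reads against 15900000 to 19400000. This estimate was the least certain, since 34.4% of low values lay near a whole read there, against 51.7 to 59.0% in the others. That library also had the fewest genes at 0, 81 against 192 to 376. It is labelled inguinal fat like the rest, but its epithelial and mesothelial markers stood at 2920 and 1030% of the Steap4f/f mean. Whether its tissue was the same in depot and dissection was not tested, so its values, Ckb and Slc6a8 included, describe the library under that label and are given apart from replicate 3.

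Ckm, the muscle creatine kinase, was the 1 member that passed the test, and it fell. Its values were 15912, 67387, 50474 and 81342.5 in Steap4f/f replicates 1, 2, 5 and 6, against 397.1 and 1525.8 in Steap4AKO replicates 2 and 3. The groups did not overlap, although the Steap4f/f libraries themselves spanned 5.11-fold and replicate 1 was the lowest of them. The ratio of group means was 55.9-fold, with 53780 ± 28220 (SD, n = 4) against 961.4 ± 798.2 (SD, n = 2). On the log2(value + 1) scale, on which all differences and tests below are given as Steap4AKO minus Steap4f/f, the difference was -5.88 (SE 0.72, 95% interval -7.54 to -4.21, limma adjusted p = 0.0466). Over all genes 0.433% were called lower and 0.04% higher, 0.473% together. The call depended on settings and on the libraries used. The limma adjusted p was 0.0503, 0.0512 and 0.0665 with a pseudocount of 0.5, a minimum mean of 50 and a robust prior. It was 0.177, 0.154 and 0.123 without Steap4f/f replicate 2, 5 or 6, and 0.00642 without Steap4f/f replicate 1. With Steap4AKO replicate 2 or 3 alone, the difference was -6.85 or -4.91. The gene (ENSMUSG00000030399, chromosome 7, 19404776 to 19422841, plus strand of GRCm38) shares 451 exonic bases with the antisense gene A930016O22Rik, which had at most 46.7 in any library.

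Ckmt2, the sarcomeric mitochondrial kinase, was low in the Steap4AKO libraries, at 5.0 and 65.8, against 389.1, 1635.6, 937.2 and 3430.5 in Steap4f/f. The groups did not overlap, and the spread within Steap4f/f, 8.82-fold, was the widest of the 7 members. The means differed 45.1-fold and the log2 difference was -5.90 (SE 1.05, 95% interval -8.34 to -3.46), which did not pass (limma adjusted p = 0.0597). It passed without Steap4f/f replicate 1 (-6.44, limma adjusted p = 0.0334). With Steap4AKO replicate 2 or 3 alone, the difference was -7.64 or -4.16. The 5.0 in Steap4AKO replicate 2 is low and so imprecise, and 1 read was estimated, with little certainty, at about 1.43 there. Ckmt2 (ENSMUSG00000021622) lies on chromosome 13, 91853387 to 91876885, minus strand. Ckm and Ckmt2 were the 2 members whose groups did not overlap, both lower, where 14.4% of all genes were lower in this way.

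**Figure D1:**
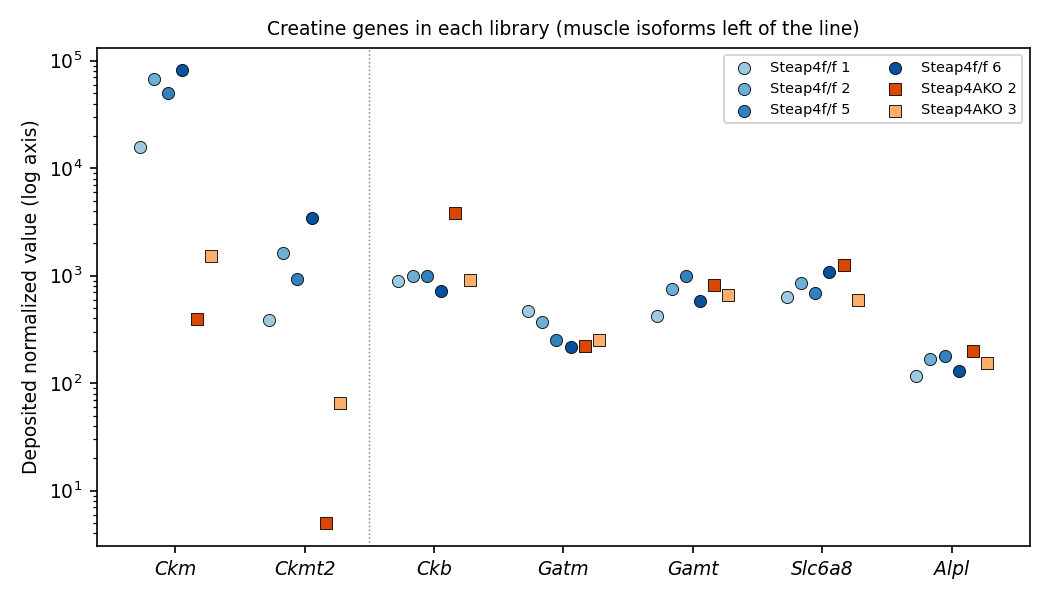
Deposited normalized value (log axis) of the 7 measured creatine genes, with 1 point per library; circles are Steap4f/f, squares Steap4AKO, and the dotted line parts the muscle isoforms from the rest. Ckm and Ckmt2 lie below the whole Steap4f/f range in both Steap4AKO libraries, and Ckb is high in Steap4AKO replicate 2 alone.

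Skeletal muscle markers moved with both kinases. Over all genes, 14.4% were lower without overlap and 0.433% were called lower. All 20 listed markers had lower mean log2 values in Steap4AKO, 16 of them without overlap, and 6 were called (median -6.22, against 0.02 over all genes tested). Their summed value was 28.3, 120, 92.6 and 159% of the Steap4f/f mean in Steap4f/f and 0.478 and 4.12% in Steap4AKO, so that it varied 5.62-fold within Steap4f/f. In whole tissue, fewer cells of a type and less RNA per cell cannot be told apart. Ckm, which is not among the 20 markers, had a value equal to 10.7, 10.6, 10.3 and 9.7% of their sum in Steap4f/f, a 1.1-fold range, and to 15.8 and 7.03% in Steap4AKO, on either side of it. With the mean log2 level of these markers as a covariate, which correlated with genotype at -0.87 over the 6 libraries, the limma difference was -2.47 for Ckm (SE 0.49, unadjusted p = 0.00149, adjusted p = 0.53) and -0.79 for Ckmt2 (SE 0.55, adjusted p = 0.677).

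The ratio of Ckm to single muscle markers lay on both sides of the Steap4f/f range in the Steap4AKO libraries. Of the 18 markers above 0 in every library, the ratio lay above the Steap4f/f range for 11, within it for 2 and below it for 5 in Steap4AKO replicate 2, and for 2, 4 and 12 in replicate 3. Ckm was 4.71, 4.89, 3.58 and 3.85 times Mylpf, the fast regulatory myosin light chain, in Steap4f/f and 2.76 times in Steap4AKO replicate 3, against 17.1 times in replicate 2. Against Myh4, the fast IIb myosin heavy chain (named after its values were seen), Ckm stood at 0.32 to 0.4 in Steap4f/f, 0.333 in Steap4AKO replicate 3 and 9.19 in replicate 2. Acta1, skeletal actin, went the same way, at 5.47 to 8.28 times Mylpf in Steap4f/f, 8.03 times in replicate 3 and 50.5 times in replicate 2. Mylpf and Myh4 had 23.2 and 43.2 there and Acta1 1173. Other markers, chosen after their values were seen, went the other way: Ckm was 3.61 to 5.12 times Tnnc2, the fast troponin C, in Steap4f/f, 1.62 times in Steap4AKO replicate 2 and 3.76 times in replicate 3. Against Acta1 itself, Ckm stood at 33.8 and 34.4% in Steap4AKO, below the 47.4 to 65.5% of Steap4f/f. It was 2.51 to 2.81 times Myl1, a myosin light chain, in Steap4f/f, against 1.36 and 1.21 times in Steap4AKO. No single ratio of Ckm to muscle transcripts therefore described Steap4AKO replicate 2.

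Ckmt2 varied in its ratio to Ckm. It was 2.45, 2.43, 1.86 and 4.22% of Ckm in Steap4f/f and 1.26 and 4.31% in Steap4AKO, with Steap4f/f replicate 6 and Steap4AKO replicate 3 the highest. Beside this, Myh1, Myh2 and Myh7, heavy chains of fibres other than IIb (also named after their values were seen), made up 7.63, 3.3, 1.57 and 19.0% of the 4 adult heavy chains in Steap4f/f and 57.1 and 28.3% in Steap4AKO. Steap4f/f replicate 6 and Steap4AKO replicate 3 thus had a larger share of these chains than the other 3 Steap4f/f libraries, while Steap4AKO replicate 2 had the highest share and the lowest Ckmt2. The heavy chains of that library had values of at most 43.2, and the part of fibre type was not tested.

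Ckb, the cytosolic isoform of brain, smooth muscle and other tissues, was level in 5 of the 6 libraries and high in 1. Its values were 890.7, 988.5, 992.7 and 720.7 in Steap4f/f and 910.4 in Steap4AKO replicate 3, a 1.38-fold range, against 3812.9 in Steap4AKO replicate 2. That value was 3.84 times the highest of the others, where 3.51% of genes tested were more than 3-fold above every other library. The means were 898.1 ± 127.4 (SD, n = 4) and 2362 ± 2052 (SD, n = 2), and the test did not call the log2 difference of 1.06 (SE 0.48, 95% interval -0.05 to 2.18) (limma adjusted p = 0.293). It was 0.03 without Steap4AKO replicate 2 and 2.10 without replicate 3, each of which left 1 Steap4AKO library. The gene (ENSMUSG00000001270) lies on chromosome 12, 111669361 to 111672338, minus strand.

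Markers of several other cell types were high in the same library. Of the 9 smooth muscle markers, all had higher mean log2 values in Steap4AKO. None was called by limma, 3 had an unadjusted p under 0.05 (18.1% of all genes did), and their summed value was 417% of the Steap4f/f mean in Steap4AKO replicate 2, 109% in replicate 3 and 65.5 to 146% in Steap4f/f. Acta2, smooth muscle actin, had 10482.1 and 2762 in Steap4AKO, against 1635.7, 1880.3, 2245.3 and 3788.3 in Steap4f/f. The 10 epithelial markers stood at 2920% in Steap4AKO replicate 2, 48.1% in replicate 3 and 57 to 142% in Steap4f/f, and Epcam was listed at 0 in Steap4f/f replicates 1, 2 and 6 and in Steap4AKO replicate 3, and at 412 in Steap4AKO replicate 2. The 7 mesothelial markers were at 1030, 27.4 and 42.1 to 257% in the same order, with Msln at 346.3 in Steap4AKO replicate 2 and 0 in replicate 3. The 9 macrophage markers were at 323, 98 and 96.8 to 105%, and the 12 adipocyte markers at 70.1, 102 and 95.3 to 109%. The 9 endothelial markers were at 103, 117 and 96.1 to 104%, with Pecam1 between 4345.4 and 5568.2. With the mean log2 level of the smooth muscle or the epithelial markers as a covariate, both added after seeing the data, the Ckb difference was 0.17 (adjusted p = 0.943) or 0.28 (adjusted p = 0.836). Both lists, like Ckb, were highest in Steap4AKO replicate 2. Either covariate therefore takes up a rise in that library whatever its source, so these fits cannot tell where Ckb was expressed. These covariates correlated with genotype at 0.63 and 0.57, and the parts of the single cell types in the Ckb value were not tested.

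**Figure D2:**
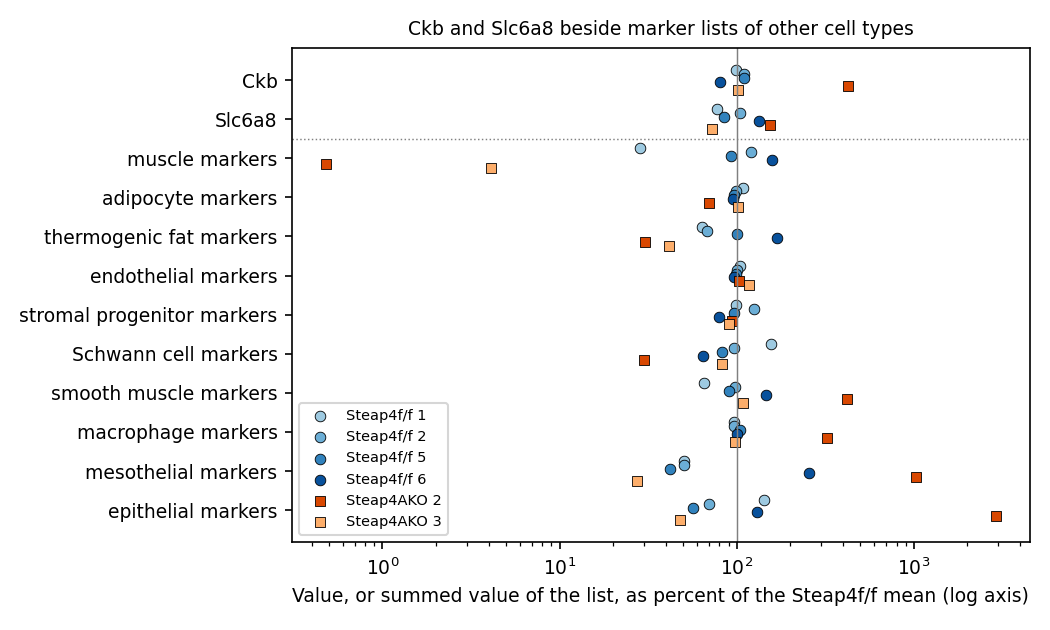
Values of Ckb and Slc6a8 (above the dotted line) and summed values of 10 marker lists, each as percent of its Steap4f/f mean (log axis), with 1 point per library. In Steap4AKO replicate 2, smooth muscle, macrophage, mesothelial and epithelial markers stand at 417, 323, 1030 and 2920%, and muscle markers at 0.478%.

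Thermogenic fat markers, the setting in which Ckb has been studied, did not go with it. All 10 had lower mean log2 values in Steap4AKO and none was called by limma (median -1.59, with 4 under an unadjusted p of 0.05, as 18.1% of all genes were). Their summed value was 30.2 and 41.7% in Steap4AKO replicates 2 and 3 and 63.8 to 169% in Steap4f/f. Pdk4 was the largest part of that sum in every library, with 12469 of 19980 in Steap4f/f replicate 6 and 1821.5 of 3576 in Steap4AKO replicate 2. With the muscle covariate the differences of Ucp1 and Cidea changed sign (1.28 and 0.73), and the part of muscle tissue in these values was not tested. Ucp1, the uncoupling protein, was low in Steap4AKO, at 17.2 and 26.9, but ran over 58, 4.0, 890.8 and 2068.9 in Steap4f/f. Cidea, a lipid droplet protein of thermogenic adipocytes, had 558.7, 417.9, 1314.9 and 1418.6 against 51.8 and 457.8. Within Steap4f/f, where Ucp1 ran from 4.0 to 2068.9, Ckb stayed between 720.7 and 992.7 and was lowest in replicate 6, which had the highest Ucp1.

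Per kilobase of exons, the cytosolic kinase transcripts of Steap4f/f tissue were mostly Ckm. Ckb made up 5.33, 1.45, 1.94 and 0.884% of the summed Ckb and Ckm levels in Steap4f/f, and 90.6 and 37.5% in Steap4AKO replicates 2 and 3. The groups did not overlap, and the ratio of Ckm to Ckb levels went from 17.8 to 112 in Steap4f/f down to 0.103 and 1.67. In Steap4AKO replicate 3 the Ckb value of 910.4 was within the Steap4f/f range and Ckm was below it.

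Another pair with a muscle and a general isoform was set beside this one. The ratio per kilobase of Slc25a4, the ADP/ATP carrier abundant in muscle and heart, to Slc25a5, the general one, was 0.587 and 0.586 in Steap4AKO, against 0.576, 1.46, 1.15 and 2.0 in Steap4f/f. It overlapped between the groups, since Steap4f/f replicate 1, with the lowest muscle markers of its group, had the lowest ratio of all 6 libraries. The Steap4AKO libraries were nearly equal in this ratio but far apart in Ckm to Ckb, at 0.103 and 1.67.

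**Figure D3:**
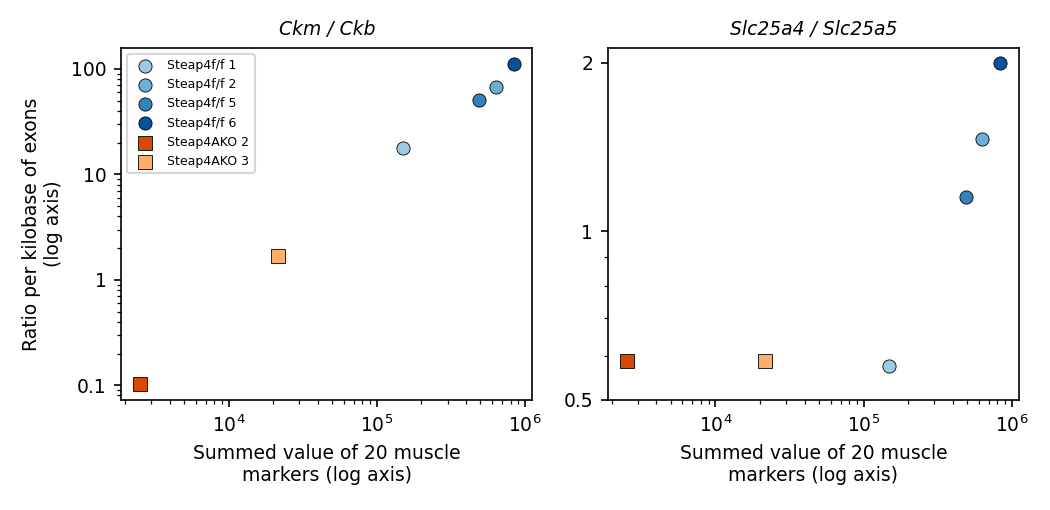
Ratio of a muscle to a general isoform per kilobase of exons (log axis) against the summed value of 20 skeletal muscle markers (log axis), 1 point per library, for Ckm over Ckb and Slc25a4 over Slc25a5. Ckm over Ckb spans 0.103 to 112, while Slc25a4 over Slc25a5 spans 0.576 to 2.0 and is alike in the Steap4AKO libraries and Steap4f/f replicate 1.

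The 2 enzymes of creatine synthesis did not pass the test and did not share a pattern. Gatm, the first enzyme, had 222.9 and 252.5 in Steap4AKO, against 466.1, 374.6, 251.3 and 219.1 in Steap4f/f. The Steap4AKO values lay at the lower end of the Steap4f/f range, with a log2 difference of -0.40 (SE 0.32, limma adjusted p = 0.537) and an interval from 0.454-fold to 1.27-fold of the Steap4f/f level. Gamt, the second, had 421.5, 749.1, 985.3 and 586 against 823.7 and 659.4, both inside the Steap4f/f range. Its log2 difference was 0.17 (SE 0.32, limma adjusted p = 0.797), with an interval from 0.679-fold to 1.87-fold, and it was -0.04 without Steap4f/f replicate 1. That replicate had the highest Gatm and the lowest Gamt, so that Gatm per Gamt, per kilobase, was 0.532 there, 0.123 to 0.241 in the other Steap4f/f libraries and 0.13 and 0.184 in Steap4AKO. Gatm (ENSMUSG00000027199) lies on chromosome 2, 122594467 to 122611303, and Gamt (ENSMUSG00000020150) on chromosome 10, 80258151 to 80261012, both on the minus strand.

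Slc6a8, the creatine transporter, took opposite positions in the 2 Steap4AKO libraries. They had 1259.3 and 595.3, the highest and the lowest of all 6, against 631.9, 856.5, 689.1 and 1091.6 in Steap4f/f. The log2 difference was 0.12 (SE 0.33, limma adjusted p = 0.87), with an interval from 0.641-fold to 1.83-fold. It was -0.42 without Steap4AKO replicate 2 and 0.66 without replicate 3, each of which left 1 Steap4AKO library. With the smooth muscle and the epithelial covariate, both highest in Steap4AKO replicate 2 as Slc6a8 was, the difference was -0.52 and -0.40. The gene (ENSMUSG00000019558) lies on chromosome X, 73673150 to 73682502, plus strand.

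Alpl, the phosphatase, had the lowest Steap4f/f mean of the 7 genes per kilobase. Steap4AKO replicates 2 and 3 had 199.9 and 153.9, against 115.7, 169.7, 178.6 and 128.6 in Steap4f/f, so that replicate 2 lay above the Steap4f/f range and replicate 3 within it. The log2 difference of 0.27 (SE 0.28, limma adjusted p = 0.644) had an interval from 0.767-fold to 1.88-fold. Alpl (ENSMUSG00000028766) lies on chromosome 4, 137741733 to 137796384, minus strand. For none of Ckb, Gatm, Gamt, Slc6a8 and Alpl does a missed threshold show that the genotypes were alike, and intervals of this width leave room for changes of over 1.2-fold in either direction for the last 4.

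**Figure D4:**
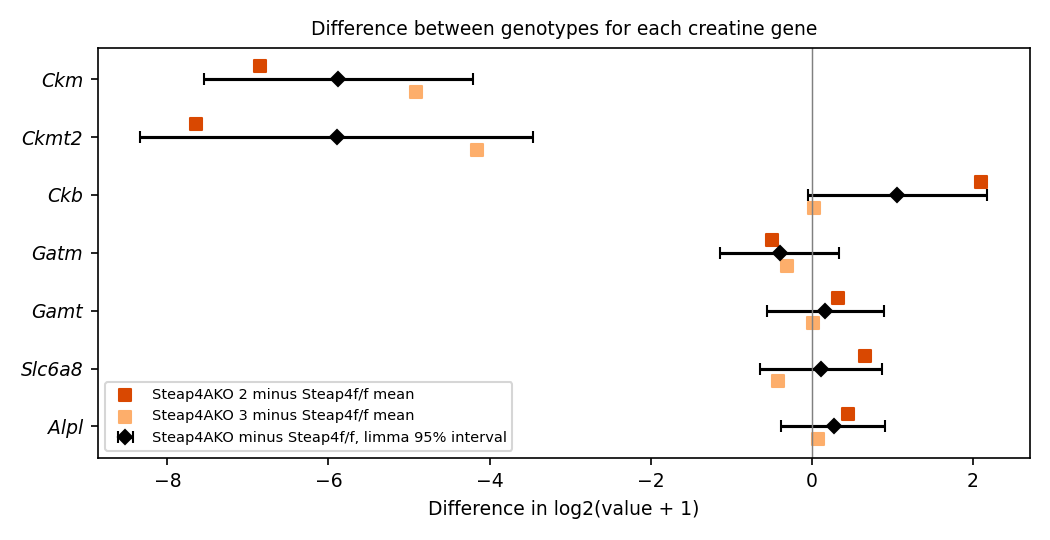
Difference in log2(value + 1) for each creatine gene: the diamond is the limma estimate of Steap4AKO minus Steap4f/f with its 95% interval, and the squares are each Steap4AKO library minus the Steap4f/f mean. Ckm and Ckmt2 stand at -5.88 and -5.90, and Ckb at 2.10 in Steap4AKO replicate 2 and 0.03 in replicate 3.

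By level per kilobase of exons, the order of the Steap4f/f means was Ckm (18500 ± 9690, SD, n = 4), Ckmt2 (1080 ± 891), Gamt (475 ± 167), Ckb (310 ± 44.0), Slc6a8 (157 ± 39.6), Gatm (109 ± 38.0) and Alpl (36.7 ± 7.61). The libraries of Ckmt2 and Gamt, of Gamt and Ckb, and of Slc6a8 and Gatm overlapped as neighbours in that order. Ckm lay above Ckmt2, Ckb above Slc6a8 and Gatm above Alpl without overlap. The order was the same per kilobase of coding sequence. In the Steap4AKO libraries the order differed, with Ckb highest in replicate 2 (1320 per kilobase) and Ckm highest in replicate 3 (524 per kilobase). Within Steap4f/f, Ckb had the narrowest range of the 7, at 1.38-fold, followed by Alpl (1.54-fold), Slc6a8 (1.73-fold), Gatm (2.13-fold) and Gamt (2.34-fold).

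Genes with the most similar pattern were found by the root mean square difference of centred log2(value + 1) over the 6 libraries, among 12358 other genes with a mean of at least 50. Nearest to Ckb were Slc11a1, Fgd3 and Laptm5 (0.087, 0.124 and 0.132, where the SD of Ckb itself was 0.87). Slc11a1, a metal ion transporter of phagosomes, had 189.9 to 314.5 in Steap4f/f, 277.2 in Steap4AKO replicate 3 and 1151.9 in replicate 2. Nearest to Ckm were Trim55, Cox6a2 and Hfe2 (0.112, 0.176 and 0.194), and nearest to Ckmt2 were 2310002L09Rik, Neb and Myf6 (0.198, 0.246 and 0.267). For Gatm they were Dnaaf5, Tmco6 and Xpo6 (0.069, 0.098 and 0.104), for Gamt Mgmt, Wnt11 and Arvcf (0.114, 0.136 and 0.141), for Slc6a8 Samd4, Cdc14a and Mrtfa (0.094, 0.106 and 0.123) and for Alpl Ilvbl, Lyl1 and 2410002F23Rik (0.042, 0.043 and 0.076). No 2 members were among each other's nearest 3.

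Of the genes around the creatine cycle, 71 were listed in 6 groups, 60 were tested, and 1 was called, where 0.473% of all genes were. The 5 measured genes for mitochondrial ADP/ATP exchange and outer membrane channels were all lower without overlap (median -0.60), as 14.4% of all genes were. None passed in limma and 4 had an unadjusted p under 0.05, as 18.1% of all genes did. Slc25a4 had 3330.3 and 3922.8 in Steap4AKO, against 5874.9, 12220.4, 9676.9 and 13710.8 in Steap4f/f, a mean 2.86-fold lower (log2 difference -1.45, limma adjusted p = 0.0893). Slc25a5 had a mean 1.37-fold lower (adjusted p = 0.251). The channels Vdac3 and Vdac1 had means 1.52-fold and 1.65-fold lower (adjusted p = 0.131 and 0.153). With the muscle covariate the log2 differences of Slc25a4, Vdac3 and Vdac1 were -0.20, -0.11 and -0.03, against -1.45, -0.60 and -0.70 without it. That of Slc25a5 went the other way, from -0.44 to -0.77. The part of muscle tissue in these values was not tested.

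Of 13 adenylate and nucleoside diphosphate kinases, which move phosphate between nucleotides, 2 were lower and 1 higher without overlap. Over all genes, 14.4% were lower and 14.1% higher in this way. None passed in limma and 2 had an unadjusted p under 0.05, as 18.1% of all genes did. Ak1 had 296.1 and 321.7 in Steap4AKO, against 1066, 3432.3, 2936.1 and 4637 in Steap4f/f, 9.77-fold lower in the mean (log2 difference -3.10, SE 0.51, limma adjusted p = 0.0527). Nme2, a nucleoside diphosphate kinase, had a mean 1.36-fold lower (adjusted p = 0.187). Ak1 passed with a pseudocount of 5 (adjusted p = 0.0478), quantile normalization (0.0488), array weights (0.0349) and without Steap4f/f replicate 1 (0.00306). With the muscle covariate the log2 differences of Ak1 and Nme2 were -1.16 and -0.77, against -3.10 and -0.43 without it. The part of muscle tissue in them was not tested. Ak1 and Slc25a4, like Ckm, were lowest within Steap4f/f in replicate 1 and highest in replicate 6.

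Among 18 tested genes that supply arginine and methyl groups for creatine synthesis, 4 were higher and 3 lower without overlap and the median was 0.06. Over all genes, 14.1% were higher and 14.4% lower in this way. None passed in limma and 4 had an unadjusted p under 0.05, as 18.1% of all genes did. Ass1, which makes argininosuccinate on the way to arginine, had 425.8 and 136.2 in Steap4AKO, against 100.3, 38.8, 66.1 and 92.5 in Steap4f/f (3.77-fold, adjusted p = 0.174). Arg1, a cytosolic arginase, had 38.7 and 31.9 in Steap4AKO and at most 7.1 in Steap4f/f (adjusted p = 0.158).

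Of 5 measured phosphatase and pyrophosphate genes, Phospho1, a phosphatase of phosphocholine and phosphoethanolamine, had 381.5 and 320.7 in Steap4AKO, against 903.4, 1589.5, 969.4 and 1859.5 in Steap4f/f, 3.79-fold lower in the mean (log2 difference -1.86, SE 0.31, limma adjusted p = 0.0527). The phosphate importer Slc20a1 had a mean 1.69-fold higher (adjusted p = 0.156). Both kept their groups apart and neither passed, as the 2 of the 5 with an unadjusted p under 0.05 in limma. Over all genes, 14.4% were lower and 14.1% higher without overlap, and 18.1% had such a p. Phospho1 passed with a pseudocount of 5 (0.0478), quantile normalization (0.0488) and without Steap4f/f replicate 1 (0.0251), all as adjusted p. Alpl had no such separation.

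Of 11 tested energy sensor and regulator genes, 3 were lower without overlap, none passed in limma and 2 had an unadjusted p under 0.05. Over all genes, 14.4% were lower without overlap and 18.1% had such a p. The AMP-activated kinase subunits Prkab2 and Prkaa2, isoforms abundant in muscle, had means 2.91-fold and 2.87-fold lower (adjusted p = 0.12 and 0.129). Without Steap4f/f replicate 1 both passed (adjusted p = 0.0164 and 0.0174), as did Slc25a4 (0.0131).

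Of 8 tested relatives of Slc6a8 and other carriers, 4 were higher and 1 lower without overlap, against 14.1% and 14.4% of all genes. Slc6a6, the taurine transporter, was the gene called, with 4441.1 and 4554.1 in Steap4AKO, against 1847.1, 1996.4, 2299.4 and 2510.8 in Steap4f/f (2.08-fold, log2 difference 1.07, SE 0.16, limma adjusted p = 0.0466). Leaving out any Steap4f/f library but replicate 1 ended that call. So did the pseudocount of 0.5 (limma adjusted p = 0.0503), the minimum mean of 50 (0.0512), the robust prior (0.0665) and the muscle covariate (0.53). Slc16a12, a carrier that exports creatine, was named after its values were seen, with 797.7 and 717.6 in Steap4AKO against 204.6, 381.7, 437 and 253.8 in Steap4f/f. Both Steap4AKO libraries lay above every Steap4f/f library, 2.37-fold in the mean, but the log2 difference of 1.31 (SE 0.31) missed the threshold (limma adjusted p = 0.106). The creatine importer Slc6a8 showed no such separation.

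**Figure D5:**
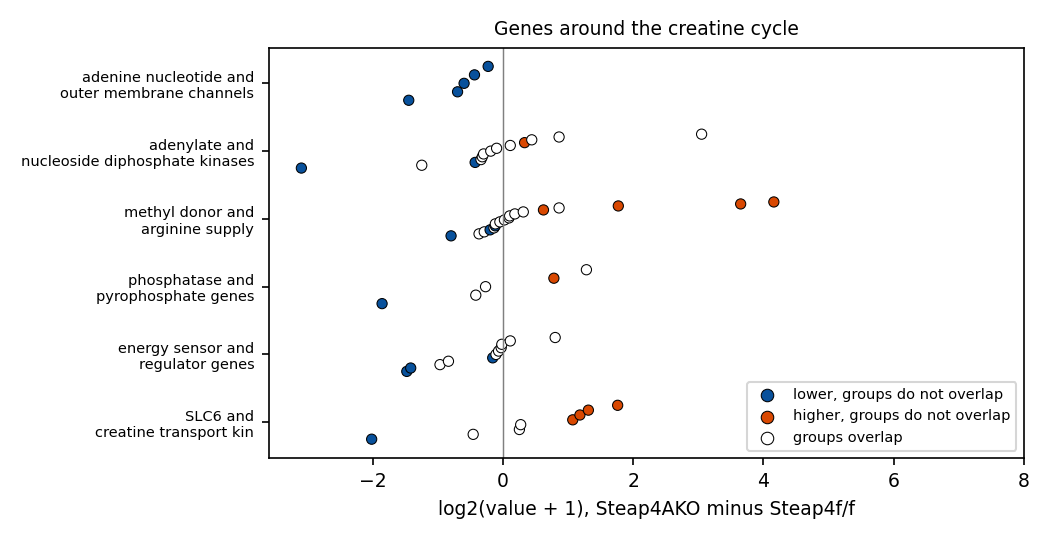
Difference in log2(value + 1), Steap4AKO minus Steap4f/f, of the 60 tested genes in 6 groups around the creatine cycle, 1 point per gene; blue points are lower and orange points higher without overlap between the groups, and white points overlap. The 5 carrier and channel genes are all blue, and Ak1 stands at -3.10.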

How the data were processed

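RNA was sequenced from iWAT of mice, in 4 Steap4f/f and 2 Steap4AKO samples. The deposited values are a signal, gene counts normalized with DESeq2, per the name of the authors' table. Per the submitters' processing notes, STAR (2.7.0e), RSEM (1.3.3) and DESeq2 (1.12.4 with R 4.2.0) were used, with GRCm38, and the annotation and strandedness are not given in the sources used here. At the best step per library, 34.4 to 59.0% of low values lay within 0.1 of a whole read, so whole reads could not be recovered, count tests were left out and depth is an estimate. RSEM divides reads between similar genes.

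Symbols, coordinates and exon lengths came from GENCODE M21 (15125 genes matched, 51 did not). Differences were tested with limma 3.58.1 (R 4.3.3, variance trend, two-sided) on log2(value + 1) across the 6 libraries; 15006 genes had a mean of at least 10 and 170 did not, with Benjamini-Hochberg adjustment over all of them and a threshold of 0.05. Folds are ratios of group means, and log2(value + 1) understates changes of low genes.

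The members, lists and tests were chosen with earlier results of these data known. Named genes were all members, Steap4, called genes of each list or otherwise the 2 with the smallest p, isoform counterparts, defining markers and the 3 most similar genes per member; others are marked in the text. One isoform counterpart is not reported here. Figures were drawn with Python 3.11.15 and matplotlib 3.10.9.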

Additional observations from a re-analysis of the deposited data

Results flagged for a closer look

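Of 45 values of members, named genes and ratios looked at within the 4 Steap4f/f libraries, 3 had 1 library far from the rest, with a gap to the nearest library above Dixon's 95% critical value. Chance gives about 1 in 20. Steap4 stood at 17018 in replicate 1, with a gap of 0.873 of the range. Arg1 stood at 7.1 in replicate 5 (0.851) and Epcam at 2.4 in replicate 5 (1.0), both with values of a few reads. None of the 7 creatine genes had such a library.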

How the results depend on the processing

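No paired analysis was possible because the groups share 1 replicate number. Ckm was the member called in the reported fit, among 71 genes. Members called and genes called were 0 and 1 with a pseudocount of 0.5, 0 and 1 with a minimum mean of 50, 0 and 1 with a robust variance prior, 0 and 1 with the muscle covariate, 2 and 119 with array weights, and 2 and 410 at a threshold of 0.1; 123 genes were called with a pseudocount of 5. Where no member was called, 1 or 2 had an unadjusted p under 0.05. Leaving out 1 library gave 0 to 3 members and 1 to 821 genes. The cause was not tested. Ckm lost its call in 10 of 18 settings, and its difference ran from -6.85 to -2.47. Its adjusted p, 0.0466, was 0.0503 with a pseudocount of 0.5, 0.0512 with the higher minimum and 0.0665 with the robust prior. Among settings that kept both Steap4AKO libraries, Ckmt2 gained a call at a threshold of 0.1 and without Steap4f/f replicate 1. It also gained one with array weights (limma adjusted p = 0.0446). Ckb changed sign with the muscle covariate (-0.58). Slc6a8 did so without Steap4AKO replicate 2 (-0.42, with a range of -0.42 to 0.66 over the left-out libraries) and with the smooth muscle (-0.52) and epithelial (-0.40) covariates, and Gamt without Steap4f/f replicate 1 (-0.04, range -0.04 to 0.37). Of the other named genes, none was called in either direction where its sign changed: Msln with a pseudocount of 0.5 (-0.01), with the muscle covariate (-4.13), without Steap4f/f replicate 2 (-0.02) or 5 (-0.30) and without Steap4AKO replicate 2 (-3.83, range -3.83 to 4.61), Plin1 with quantile normalization (0.11), with the muscle covariate (0.76) and without Steap4AKO replicate 2 (0.26, range -0.78 to 0.26), and Prkaa2 (0.01), Ucp1 (1.28), Cidea (0.73) and Epcam (-2.08) with the muscle covariate. Gatm and Alpl kept direction and stayed uncalled in all 18 settings. Rescaling to equal totals moved the median of all genes from 0.02 to 0.21, where Slc6a8 (0.30), Gamt (0.36), Alpl (0.45) and Ckb (1.25) stayed above it and Gatm (-0.22), Ckmt2 (-5.73) and Ckm (-5.69) below. The share of Ckb moved by less than the spread between libraries with other lengths. The low value of 5.0 in Steap4AKO replicate 2 limits Ckmt2.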
